A study of Rattus norvegicus with 8 samples.

Results

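Gonadal hormone signalling was followed in rat brain through 6 genes: the estrogen receptors Esr1 and Esr2, the progesterone receptor Pgr, the prolactin receptor Prlr, aromatase Cyp19a1 and the steroid reductase Srd5a1. They were chosen by name, and all 6 were listed among the 15892 gene symbols found in the tables of both tissues. Each tissue had 4 libraries, from male rats of the outbred Sprague Dawley strain that were 2 months old when the diet began. Every library came from animals that drank 15% fructose and ate an omega-3 diet, labelled as docosahexaenoic acid (DHA), for 6 weeks. Neither nutrient therefore has a control group here, and the comparison is between tissues. Whether animals were pooled, or gave more than 1 library, is not stated in the labels, so the spread below is that between libraries and may be technical.

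Estradiol is formed in the brain from testosterone by aromatase and acts mainly through the nuclear receptors ER-alpha (Esr1) and ER-beta (Esr2). Progesterone acts through the nuclear receptor encoded by Pgr, a gene that estrogen induces in hypothalamic neurons. The Srd5a1 enzyme reduces testosterone to dihydrotestosterone and progesterone to dihydroprogesterone, the precursor of the neurosteroid allopregnanolone. Prlr is not a steroid receptor but a cytokine receptor that signals through Jak2 and Stat5, and choroid plexus epithelium is a well known site of it. The preoptic, arcuate and ventromedial nuclei of the hypothalamus are classical sites of these receptors.

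Promoter windows are shown for the estrogen receptors, which were both higher in hypothalamus, for Pgr, which went the other way, and for Srd5a1, whose levels were the steadiest in hippocampus. Each runs from 250 bases before to 50 bases after an annotated start, from RefSeq on the rat build GRCr8. Capitals mark the core of an estrogen response element, GGTCA on either strand, where there was one, and otherwise a GC box, GGGCGG on either strand. The build differs from that of the expression values, and the values, given per gene, do not say which start was used.
Esr1, chr1:43641845-43642144, plus strand: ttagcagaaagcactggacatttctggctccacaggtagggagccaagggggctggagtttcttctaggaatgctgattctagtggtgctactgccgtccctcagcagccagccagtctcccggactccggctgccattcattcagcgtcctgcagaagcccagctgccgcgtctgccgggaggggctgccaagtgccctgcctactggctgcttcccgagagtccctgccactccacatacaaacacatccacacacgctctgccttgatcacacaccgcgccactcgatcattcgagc
Esr2, chr6:100644660-100644959, minus strand: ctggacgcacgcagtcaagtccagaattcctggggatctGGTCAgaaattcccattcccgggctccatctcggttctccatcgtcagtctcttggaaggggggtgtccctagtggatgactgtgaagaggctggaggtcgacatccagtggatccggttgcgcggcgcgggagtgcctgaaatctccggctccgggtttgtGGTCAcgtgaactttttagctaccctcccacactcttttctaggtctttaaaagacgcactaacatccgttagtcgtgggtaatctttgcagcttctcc
Pgr, chr8:14354148-14354447, plus strand: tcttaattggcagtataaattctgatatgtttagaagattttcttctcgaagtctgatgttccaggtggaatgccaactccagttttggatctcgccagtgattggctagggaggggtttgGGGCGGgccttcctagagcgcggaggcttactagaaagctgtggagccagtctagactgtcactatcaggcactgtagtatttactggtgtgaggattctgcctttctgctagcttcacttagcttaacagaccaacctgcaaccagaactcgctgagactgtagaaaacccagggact
Srd5a1, chr1:35514664-35514963, plus strand: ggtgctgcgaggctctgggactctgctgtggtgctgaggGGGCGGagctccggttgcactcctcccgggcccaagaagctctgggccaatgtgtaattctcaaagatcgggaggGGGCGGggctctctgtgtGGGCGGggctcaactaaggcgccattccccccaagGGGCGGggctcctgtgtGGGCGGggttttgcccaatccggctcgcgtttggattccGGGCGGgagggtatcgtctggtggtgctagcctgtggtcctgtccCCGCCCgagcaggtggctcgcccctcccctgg
The Esr2 window held 2 copies of GGTCA, and those of Esr1, Pgr and Srd5a1 held 0. Of 33469 rat promoter windows of the same length, 40.5% held at least 1. The whole element, GGTCA followed by any 3 bases and TGACC, was in 0.0269% of windows and in 0 of these 4. The Srd5a1 window held 7 GC boxes and was 67.7% G and C, and the Pgr window held 1 box at 47.7%. A GC box was in 33.1% of all windows. Windows were found for 5 of the 6 genes, and the one not shown, Prlr, had 2 annotated starts with neither motif in them.

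Values are FPKM, fragments scaled to transcript length and to sequencing depth, summed over the loci of a gene and divided by 1 factor per library (0.892 to 0.950 for hippocampus and 1.07 to 1.12 for hypothalamus). The tissues were listed in separate tables that may have been normalised apart, so levels are set side by side and no difference between tissues is tested in this section. The tissue labels held in the marker genes: 8 of 8 compared hypothalamus-defining genes, such as Avp and Oxt, were higher in hypothalamus and 7 of 7 hippocampus-defining genes, such as Slc17a7, were lower. By the same stricter measure, given below, 13.3% of all genes compared were higher and 13.4% lower. Hippocampus replicates 3 and 4 stood apart by choroid plexus markers, described with Prlr below. The number of reads is unknown, and in tissue RNA fewer cells of a type and less RNA per cell cannot be told apart.

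The estrogen receptors were higher in hypothalamus, and Pgr was higher in hippocampus, with no overlap between libraries. Prlr and Cyp19a1 overlapped between the tissues, as did Srd5a1, the most abundant of the 6 in both. Without a filter on low values, 2 of the 6 genes lay above the hippocampus libraries in all 4 hypothalamus libraries, against 24.2% of 13495 genes, and 1 lay below, against 23.4%. The 3 genes without overlap are thus a share close to the 47.6% of all genes. A stricter measure added 2 conditions, that the means lie at least 1 apart as log2(FPKM + 1), a scale on which low genes differ by less, and that the gene average at least 1 FPKM. It called 0 of the 4 genes of the set that passed the level filter (Pgr, Prlr, Cyp19a1 and Srd5a1), against 13.3% of 10554 genes higher and 13.4% lower, 26.7% together. Of these 4, Pgr was without overlap, where 25.7% of the 10554 genes lay above, 27.7% below and 53.4% either way. Esr1, at a mean of 0.951 FPKM, and Esr2, at 0.220, were under that filter.

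**Figure D1:**
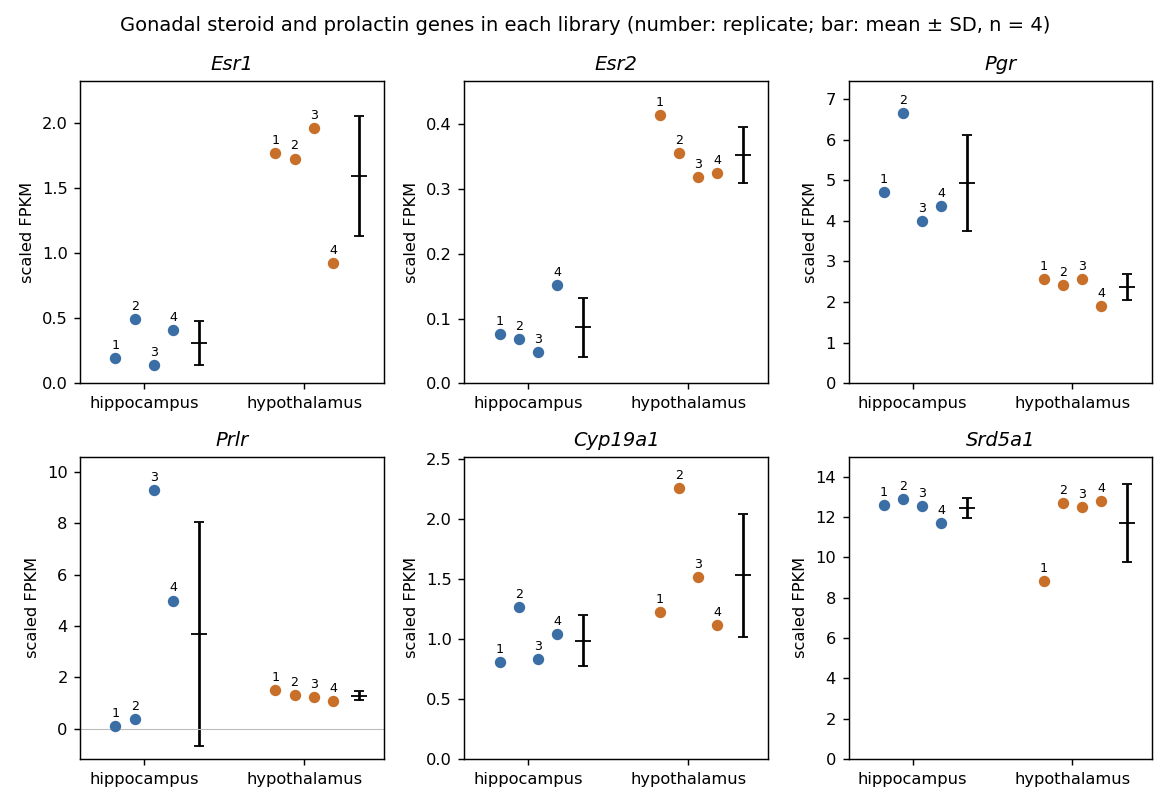
Scaled FPKM of the 6 genes in each library, with hippocampus in blue and hypothalamus in orange, numbers giving the replicate and black bars the mean ± SD of 4 libraries. Esr1 and Esr2 lie higher in hypothalamus and Pgr in hippocampus without overlap, while Prlr in hippocampus spans 0.0868 to 9.31.

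Esr1, the receptor that carries estrogen feedback on the reproductive axis, was at 0.196, 0.495, 0.142 and 0.405 FPKM in hippocampus replicates 1 to 4. In hypothalamus it was at 1.77, 1.72, 1.96 and 0.920 FPKM. Replicate 4 was the lowest hypothalamus library and still 1.86 times the highest hippocampus library. The means were 0.309 ± 0.168 FPKM in hippocampus and 1.59 ± 0.459 in hypothalamus (SD, n = 4), a ratio of 5.15. On the log2(FPKM + 1) scale the difference was 0.98 ± 0.17 (SE), just under the limit of 1. It was 1.07 with values as deposited, where Esr1 passed both conditions, and 2.09 with a pseudocount of 0.1.

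Regional genes varied among the hypothalamus libraries too, beside the low Esr1 value of replicate 4. Of 11 transcription factor genes of the ventromedial, arcuate and preoptic regions, 5 were lowest in replicate 4 and 2 were highest there, against 18.8% and 20.4% of all genes compared. Of 5 compared pituitary genes, 3 were lowest and 1 was highest there. Cga, the alpha subunit of pituitary glycoprotein hormones, was at 18.2 FPKM in replicate 4 and at 162 to 293 in the others, whereas Lhb, a beta subunit, was at 7.53 there and at 2.62 to 6.72 in the others. The summed level of all 12 listed factors was 98.7 FPKM in replicate 4 and 96.4 to 116 in the others, and that of the 8 pituitary genes, mostly Cga in the others, was 45.9 against 199 to 332. Of the pituitary genes Prl was listed at 0 in all hypothalamus libraries. The part of these genes in the Esr1 value was not tested.

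Esr2, which in hypothalamus is known from the paraventricular nucleus, was the lowest of the 6 genes in both tissues. Its levels were 0.0754, 0.0687, 0.0487 and 0.152 FPKM in hippocampus and 0.414, 0.356, 0.318 and 0.325 in hypothalamus. The groups did not overlap, and the lowest hypothalamus library was 2.09 times the highest hippocampus library. The ratio of the means was 4.10, for 0.353 ± 0.0436 against 0.0863 ± 0.0454 FPKM (SD, n = 4). The difference of 0.32 ± 0.04 on the log2(FPKM + 1) scale became 1.31 with a pseudocount of 0.1, as the pseudocount of 1 is larger than every value of this gene. Esr1 exceeded Esr2 in each of the 8 libraries, by 2.60 to 7.20 times in hippocampus and 2.83 to 6.15 times in hypothalamus. The ranges of this ratio overlapped between the tissues.

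Pgr was the second gene of the set in level and the one that was higher in hippocampus. It was at 4.71, 6.65, 4.003 and 4.36 FPKM in hippocampus and at 2.56, 2.42, 2.56 and 1.89 in hypothalamus. Replicate 2 of hippocampus was the highest library, and every hippocampus library exceeded every hypothalamus library, the closest pair by 1.56 times. The means of 4.93 ± 1.18 and 2.36 ± 0.320 FPKM (SD, n = 4) differed by 2.09 times. The difference of -0.81 ± 0.15 on the log2(FPKM + 1) scale stayed under the limit, and was -1.02 and past it with a pseudocount of 0.1. With values as deposited the difference was smaller, at -0.63, and with upper-quartile scaling it was -0.70. Without hippocampus replicate 2, which was the highest of 4 for 37.6% of all genes compared and the lowest for 36.0%, it was -0.68.

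Pgr therefore stood in unlike proportion to Esr1 in the tissues. The ratio of Pgr to Esr1 was 10.8 to 28.2 in the hippocampus libraries and 1.31 to 2.05 in the hypothalamus libraries.

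Prlr did not differ by tissue in one direction but split the hippocampus libraries. Hippocampus replicates 1 and 2 were at 0.0868 and 0.360 FPKM, and replicates 3 and 4 at 9.31 and 4.99. The hypothalamus libraries lay between these pairs, at 1.501, 1.31, 1.22 and 1.075 FPKM. The mean of replicates 3 and 4 was 32.0 times that of replicates 1 and 2, and the coefficient of variation was 119% in hippocampus against 14.0% in hypothalamus. With all libraries the difference was -0.44 ± 0.80 (SE), and without hippocampus replicates 3 and 4 it was 0.91 ± 0.17 with no overlap, a setting chosen after the values were seen. The direction of the Prlr difference between tissues thus changed with these libraries. Hippocampus replicate 3 alone turned it as well, to 0.13 without that library.

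Choroid plexus markers split the hippocampus libraries in the same way. All 10 markers listed above 0 were higher in replicates 3 and 4 than in 1 and 2, from 2.37 times for Kcnj13 to 152 times for Ttr, the thyroid hormone carrier of choroid plexus. Their summed level was 62.3 and 84.7 FPKM in replicates 1 and 2, 7007 and 5208 in 3 and 4, and 38.4 to 122 in hypothalamus. Otx2, a transcription factor of this epithelium, was listed at 0 in all 8 libraries.

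Single markers were also high in replicates 3 and 4, while the order of the other libraries varied between markers. Kl, the klotho gene of this epithelium, was at 0.391 to 0.582 FPKM in replicates 1 and 2, at 48.9 and 26.9 in 3 and 4, and at 0.765 to 1.60 in hypothalamus. Replicate 3 exceeded replicate 4 by 1.87 times for Prlr, 1.82 times for Kl, 1.90 times for Clic6 and 1.25 to 2.18 times over all 10 markers. Among 10554 genes compared, 0.644% were at least 1 log2 unit higher in the lower of replicates 3 and 4 than in the higher of 1 and 2, and 9 of the 10 markers were among them. For Prlr this step was 2.14, and 25 genes, itself included, reached it.

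**Figure D2:**
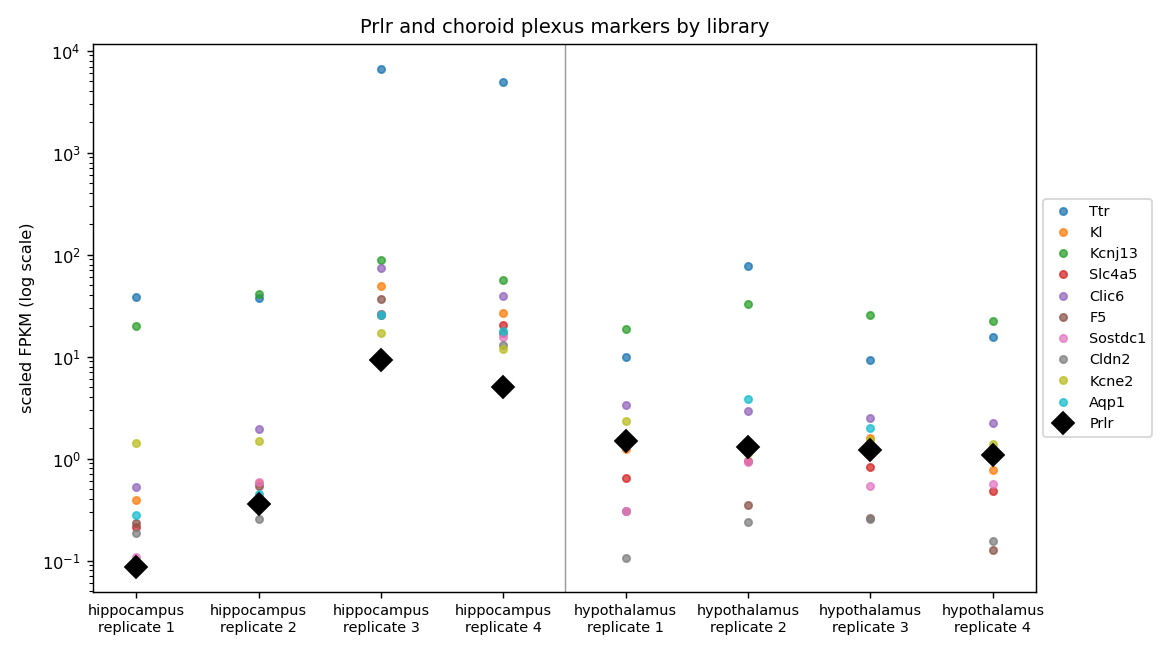
Scaled FPKM on a log axis of Prlr (black diamonds) and 10 choroid plexus markers (coloured points) in each library. Prlr and the markers are high together in hippocampus replicates 3 and 4, whereas in hypothalamus Prlr stays at 1.075 to 1.501 and Kl at 0.765 to 1.60.

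Prlr was not in a fixed ratio to these markers across tissues. Prlr was 0.190 and 0.186 times Kl in hippocampus replicates 3 and 4, 0.222 and 0.619 times Kl in replicates 1 and 2, and 0.761 to 1.40 times Kl in hypothalamus. The part of choroid plexus tissue in the Prlr levels was not tested. Of the other steroid receptor genes, Paqr5, a membrane progestin receptor, had the same split, at 1.31 and 1.45 FPKM in hippocampus replicates 1 and 2, 6.31 and 4.03 in 3 and 4, and 1.47 to 1.85 in hypothalamus. In that list Nr3c2, Paqr8 and Paqr9 separated these pairs of hippocampus libraries the other way. Nr3c2 was at 39.7 and 50.6 FPKM in replicates 1 and 2 and at 37.5 and 25.6 in 3 and 4. Paqr9 was at 6.82 and 6.81 against 4.36 and 4.15.

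Cyp19a1 was low in both tissues. It was at 0.809, 1.26, 0.833 and 1.04 FPKM in hippocampus and at 1.23, 2.26, 1.51 and 1.12 in hypothalamus. The groups overlapped, with replicate 2 the highest library of each tissue. They did not overlap without hippocampus replicate 2, where the difference was 0.40, or with values as deposited, where it was 0.46. The means were 0.985 ± 0.211 and 1.53 ± 0.513 FPKM (SD, n = 4), and the difference was 0.33 ± 0.16 (SE). The gene was listed under 1 locus for hippocampus and under 2 for hypothalamus, which carry no coordinates. One of these was at 0, 1.40, 0.727 and 0.477 FPKM, and the other at 1.23, 0.852, 0.787 and 0.642. With the locus of the highest mean in place of the sum, the difference was -0.091, so the direction depended on adding them.

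Srd5a1 was the most abundant gene of the set and nearly level. Its 4 hippocampus libraries were at 12.6, 12.9, 12.6 and 11.7 FPKM, and those of hypothalamus at 8.84, 12.7, 12.5 and 12.8. The groups overlapped, and only hypothalamus replicate 1 lay outside the range of 11.7 to 12.9 FPKM that the other 7 libraries covered. The coefficient of variation was 4.16% in hippocampus and 16.4% in hypothalamus. The difference was -0.09 ± 0.12 (SE) after scaling, 0.12 with values as deposited and 0.03 without hypothalamus replicate 1, so no direction is given.

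In hippocampus the order of mean levels was Srd5a1, Pgr, Prlr, Cyp19a1, Esr1 and Esr2. Srd5a1 lay above Pgr, and Cyp19a1 above Esr1, with no overlap of libraries, while Prlr overlapped with both of its neighbours. Esr1 and Esr2 overlapped in range, although Esr1 was the higher in each library. In hypothalamus the order was Srd5a1, Pgr, Esr1, Cyp19a1, Prlr and Esr2. Pgr exceeded Esr1 within each library, but their ranges overlapped, and Esr1, Cyp19a1 and Prlr overlapped each with the next. Srd5a1 above Pgr and Prlr above Esr2 were the steps without overlap there. Srd5a1 lay above 66.5% of all listed symbols in hippocampus and 66.4% in hypothalamus, and Esr2 above 25.1% and 28.7%.

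**Figure D3:**
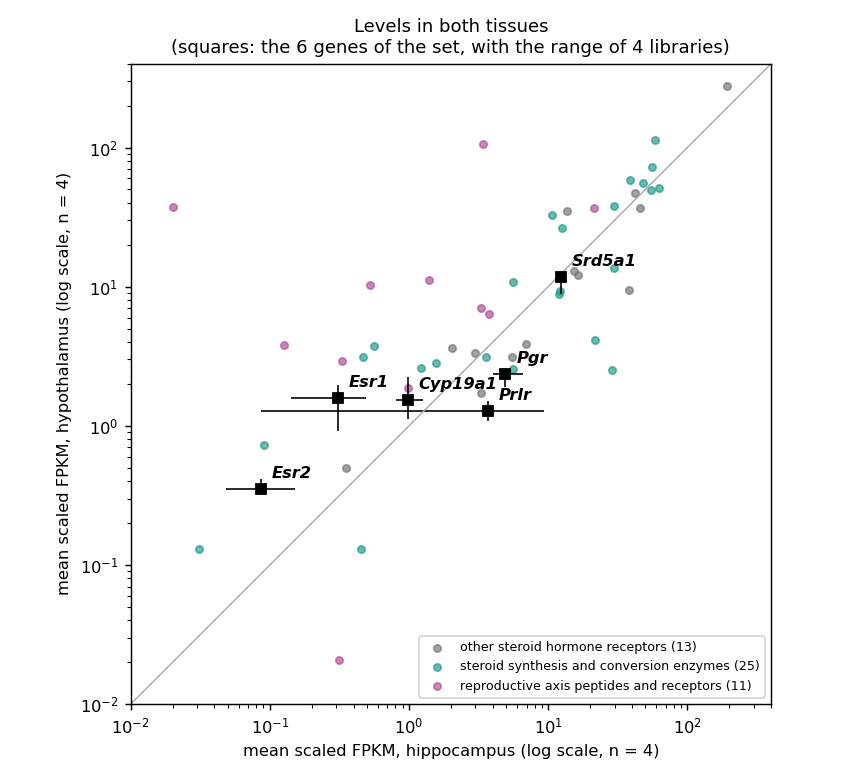
Mean scaled FPKM in hippocampus (x, log scale) against hypothalamus (y, log scale) for the 6 genes (black squares, bars spanning the 4 libraries of each tissue) and for related gene lists (coloured points; genes with a mean of 0 in either tissue are left out). Esr1 and Esr2 lie above the line of equal level, Pgr below it and Srd5a1 on it, and the bar of Prlr runs across it.

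Other steroid receptor genes gave 1 higher and 1 lower gene in hypothalamus among 12 compared, 8.33% each against 13.3% and 13.4% of all genes. Without overlap there were 2 above and 3 below, and the list had a median difference of -0.23 against -0.04 for all genes. Nr3c2, the mineralocorticoid receptor, was lower in hypothalamus, at 9.44 ± 1.15 against 38.4 ± 10.2 FPKM (SD, n = 4), a difference of -1.88. It exceeded the glucocorticoid receptor Nr3c1 in hippocampus by 2.08 to 3.19 times and stood at 0.533 to 0.898 times its level in hypothalamus. Paqr6, a membrane progestin receptor, was higher in hypothalamus, at 35.0 ± 7.51 against 13.7 ± 3.82 FPKM. Pgrmc1 and Pgrmc2, membrane-bound partners of progesterone signalling, had the highest levels of the list and overlapped between the tissues. For Pgrmc1 the hippocampus mean was 192 ± 65.8 FPKM and that of hypothalamus 275 ± 51.5.

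Enzymes of steroid synthesis and conversion went both ways. Among 21 compared genes, hypothalamus had 3 higher and 3 lower, and 15 were not called. This is 14.3% in each direction and near the share of all genes, and the median difference was 0.33. Those higher were Hsd17b1, which reduces estrone to estradiol, the sulfotransferase Sult1a1, and Akr1c14, which in rat completes the route from Srd5a1 products to allopregnanolone. Akr1c14 averaged 3.76 ± 0.910 FPKM in hypothalamus against 0.558 ± 0.183 in hippocampus (SD, n = 4), and Hsd17b1 at 3.15 ± 0.277 and 0.465 ± 0.165. Srd5a1 was 14.4 to 33.2 times Akr1c14 in hippocampus and 1.99 to 4.40 times it in hypothalamus.

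The lower enzymes were Hsd17b8, Fdx1 and Hsd11b1, which regenerates active glucocorticoid. Hsd17b8, a dehydrogenase named with Hsd17b1, averaged 2.53 ± 0.683 FPKM in hypothalamus against 28.9 ± 8.49 in hippocampus. Fdx1, the ferredoxin that feeds electrons to mitochondrial steroid hydroxylases, was at 4.11 ± 1.21 against 21.7 ± 5.62. Cyb5a and Hsd17b12 had the highest levels of the list, Cyb5a with a difference of 0.97 and no overlap.

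Some genes of steroid synthesis were listed at or near 0, though others of the list, such as Fdx1, were not. Cyp11a1, which cleaves the cholesterol side chain, was listed at 0 in all 4 hypothalamus libraries and at no more than 0.0762 FPKM in hippocampus. Cyp17a1, which opens the route to androgens, was at no more than 0.109 FPKM in any library. Srd5a2, the other testosterone reductase, was at 0 to 0.102 FPKM in hippocampus and 0.0259 to 0.281 in hypothalamus, in contrast to Srd5a1. The related Srd5a3 was at 12.2 ± 1.37 and 9.33 ± 1.40 FPKM (SD, n = 4) and did not separate.

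Genes of the reproductive axis stood higher in hypothalamus for 6 of 10 compared, while 4 were not called and 0 were lower, with a median difference of 1.83. Of all genes compared, 13.3% were higher and 13.4% lower, with a median of -0.04. Npvf, encoding the gonadotropin-inhibitory RFamide peptides, was at 37.7 ± 6.14 FPKM in hypothalamus (SD, n = 4) and was listed at 0, 0, 0 and 0.0806 in hippocampus. Gal, encoding galanin, was at 105 ± 21.0 against 3.40 ± 1.16 FPKM. Gnrh1, encoding the releasing hormone of gonadotropins, was at 10.2 ± 2.58 against 0.526 ± 0.272, and Kiss1, encoding kisspeptin, at 3.78 ± 0.879 against 0.126 ± 0.147. The receptor genes Kiss1r, at 11.2 ± 2.79 against 1.39 ± 0.138, and Npffr1 were also higher. Pdyn, the dynorphin gene, was at 36.5 ± 6.49 and 21.4 ± 5.90 FPKM and under the limit, at 0.77. Esr1 levels in hypothalamus were thus below those of the peptide genes named here.

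Genes of prolactin and growth hormone receptor signalling went both ways between hippocampus replicates 1 and 2 and replicates 3 and 4. Cish, an inhibitor that Stat5 induces, was at 0.657 and 0.865 FPKM in hippocampus replicates 1 and 2 and at 1.55 and 1.86 in 3 and 4. Socs1, another inhibitor of this signalling, was at 0.122 and 0 FPKM in replicates 1 and 2 and at 0.469 and 0.435 in 3 and 4. The other 5 compared genes of the list did not separate these pairs of libraries upwards. Stat5b, a transcription factor activated by Prlr and by the growth hormone receptor, was at 9.48, 7.28, 8.18 and 9.65 FPKM in hippocampus and 17.0, 24.4, 22.9 and 20.1 in hypothalamus. Its groups did not overlap and differed by 1.19 ± 0.14 (SE). Jak2, the kinase bound to the receptor, was lower in hypothalamus at -1.04, and Socs1 was higher at 1.45. Among 7 compared genes, 5 lay above and 1 below without overlap between the tissues, against 25.7% and 27.7% of all genes. Of the 7 there were 2 called higher, 1 called lower and 4 not called. This is 28.6% and 14.3%, against 13.3% and 13.4% of all genes. With values as deposited 4 were higher and 0 lower, but that setting also moved the median of all genes from -0.04 to 0.18. The share of all genes called in that setting is not given. The ligand gene Prl was listed at 0 in all 8 libraries.

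Coregulators and chaperones of steroid receptors separated the tissues about as often as all genes did. Among 13 compared, 2 lay above and 6 below without overlap, against 25.7% and 27.7% of all genes. Of these, hypothalamus had 1 called higher and 3 lower, against 13.3% and 13.4%, and the median difference was -0.27. Stip1, a co-chaperone that delivers receptors to Hsp90, was at 277 ± 28.7 against 94.7 ± 10.1 FPKM (SD, n = 4). Nrip1, a corepressor of estrogen receptors, was lower, at 2.26 ± 0.338 against 7.14 ± 3.20 FPKM, as were Kdm1a and Fkbp5. With values as deposited 2 were higher and 1 lower, but that setting also moved the median of all genes from -0.04 to 0.18. The share of all genes called with values as deposited is not given, so this count has no background. Hsp90ab1, the chaperone with the highest level of the list, was at 536 ± 21.1 and 645 ± 32.5 FPKM, without overlap and at -0.27 far under the limit.

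**Figure D4:**
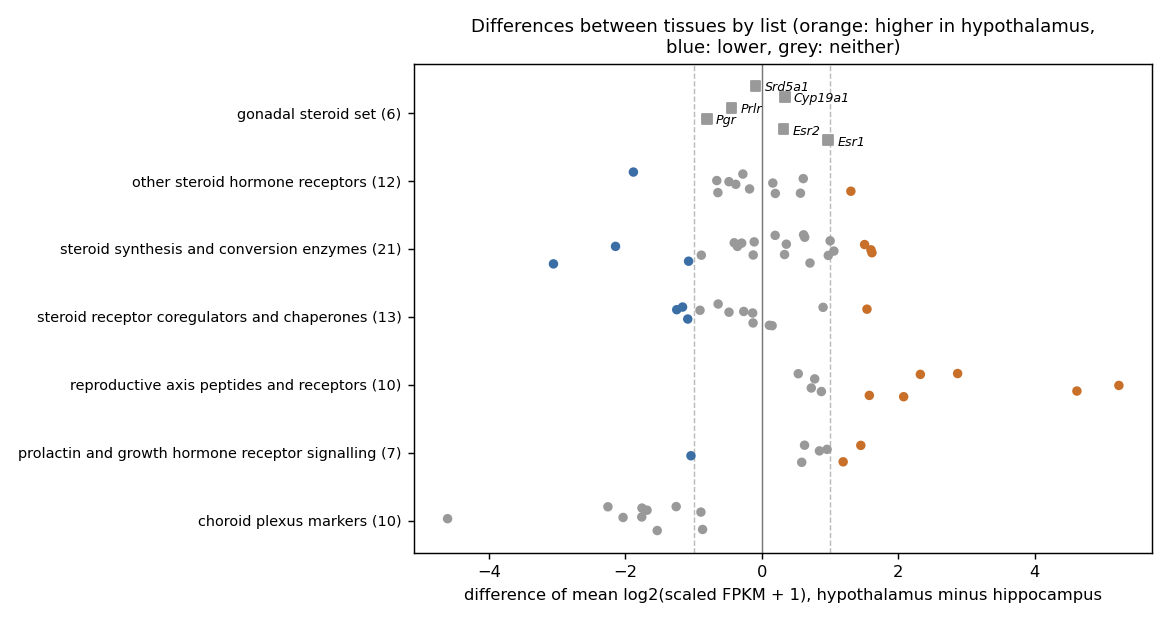
Differences of mean log2(scaled FPKM + 1), hypothalamus minus hippocampus, for the 6 genes (squares) and the compared genes of 6 lists (number in brackets), with dashed lines at the limits of -1 and 1. The 6 genes lie between the limits, the reproductive axis list lies to the right with 6 orange points, and the 10 choroid plexus markers lie to the left, uncalled, as their libraries overlap between tissues.

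The genes whose pattern was most like that of each member were sought among all genes compared, by Pearson's r on the log2(FPKM + 1) scale. These values describe 8 libraries that share 2 tissues and 2 tables, or 4 libraries of 1 tissue, and carry no test. Over 8 libraries, Pgr was most like Map2, a dendritic microtubule protein gene (r = 0.9903), and Cacna1b, an N-type calcium channel gene (r = 0.986), and 1133 genes had an r of at least 0.9. Prlr was most like Cdh3, a cadherin gene (r = 0.993), and C1qtnf3 (r = 0.991), with 40 genes at 0.9 or more. The r of Prlr with the 10 choroid plexus markers was 0.792 to 0.976, with a median of 0.930. Cdh3 was at 0.172 and 0.347 FPKM in hippocampus replicates 1 and 2, at 4.95 and 3.06 in 3 and 4, and at 0.626 to 0.908 in hypothalamus.

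Cyp19a1 was most like Tgfbr3 (r = 0.943) and Stx17 (r = 0.930), with 10 genes at 0.9 or more. Srd5a1 was most like Slc39a1, a zinc transporter gene (r = 0.981), and Mark2 (r = 0.973), with 37 genes. Within the 4 libraries of the tissue with the higher mean, hypothalamus for Cyp19a1 and hippocampus for the others, r of at least 0.99 was reached by 76 genes for Pgr, 70 for Prlr, 29 for Cyp19a1 and 48 for Srd5a1. With that many genes the 4 libraries do not single out a partner. Among the highest were Ncam2 for Pgr, Cdh3 and Sorbs3 for Prlr, Mab21l1 and Arpc1b for Cyp19a1 and Orai2 and Fadd for Srd5a1. Esr1 and Esr2 were under the level filter and were not placed.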

How the data were processed

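Libraries were made from poly-A selected RNA, per the labels' protocols. One FPKM table per tissue was deposited, with a status beside each value, which was OK for each of the 6 genes in each library. Cufflinks and Cuffdiff, TopHat and TopHat2, Bowtie and Bowtie2, and build rn5 are named in the submitters' processing notes, without versions. Depth is unknown, so no counting interval is given. FPKM were summed by symbol and scaled by median-of-ratios factors over the symbols of both tables (python 3.11.15, pandas 2.3.3). A gene was called when its mean log2(FPKM + 1) differed by at least 1, the libraries of the tissues did not overlap and the mean over 8 libraries was at least 1 FPKM. As tissue and table coincide, this is a description. limma 3.58.1 with a mean-variance trend and Benjamini-Hochberg adjustment over all genes compared was an alternative, as were other scalings, pseudocounts, filters and locus choices, pairing and left-out libraries. The calculations were tested on simulated data.

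The set, the lists and the rules were chosen with earlier results of these data known. Named list genes were the 2 called genes with the largest difference and the 2 with the highest level per list, and the 2 most like genes per member. Other genes were named after their values were seen, namely Nr3c1, Paqr5, Akr1c14, Hsd17b1, Sult1a1, Hsd11b1, Hsd11b2, Star, Cyp11a1, Cyp17a1, Srd5a2, Srd5a3, Gnrh1, Gnrhr, Kiss1, Kiss1r, Npffr1, Prl, Kdm1a, Fkbp5, Kl, Clic6, Otx2, Lhb and Cish. Ghr, Stat5a, Socs3, Paqr8 and Paqr9 were also named in this way. List genes missing from a table were not compared. Sequences came from RefSeq tables. Some genes that the lists and the naming rule cover are not reported here.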

Additional observations from a re-analysis of the deposited data

Results flagged for a closer look

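Srd5a1 in hypothalamus replicate 1 was at 8.84 FPKM, against 12.5 to 12.8 in the other 3 libraries of that tissue. The gap to the nearest library was 0.925 of the whole range of the group, above the 95% critical value of Dixon's test for 4 samples. This was the single such value among 12 groups of 4 (6 genes in 2 tissues), where chance gives about 1 in 20. The same library was the lowest of 4 for 41.4% and the highest for 39.1% of all genes compared. It was the lowest for 12 and the highest for 5 of 21 steroid enzyme genes, and its part in the Srd5a1 value was not tested.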

How the results depend on the processing

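The 6 differences mostly kept their sign and stayed under the limit, with these among the exceptions. Upper-quartile scaling put Esr1 at 1.04, uncalled for its level, and Srd5a1 at 0.038. Esr1 passed the limit with values as deposited (1.07), which made 1 member called in place of 0, and moved to 2.09 with a pseudocount of 0.1, where its mean level kept it from being called. Left-out libraries gave 0.90 to 1.11 for Esr1, 0.29 to 0.35 for Esr2, -0.89 to -0.68 for Pgr, -0.95 to 0.13 for Prlr, 0.21 to 0.41 for Cyp19a1 and -0.14 to 0.03 for Srd5a1. Esr1 was called without hippocampus replicate 2 (1.048) or 4 (1.01), so the members called ranged from 0 to 1. The members above without overlap went from 2 to 3 with Cyp19a1 as deposited, by pairs of the same number and without hippocampus replicate 2, and with Prlr without hippocampus replicates 3 and 4. With a pseudocount of 0.1, Pgr was called at -1.02 (1 member lower in place of 0) and Esr2 moved to 1.31. Quantile normalisation moved Esr2 to 0.21 and Cyp19a1 to 0.10, the locus of the highest mean moved Cyp19a1 to -0.091, and values as deposited moved Srd5a1 to 0.12. Without hippocampus replicates 3 and 4, an added setting, Prlr moved to 0.91. There 1 of 5 compared choroid plexus markers was higher in place of 0 of 10, and 5 of 21 steroid enzymes in place of 3. Without replicate 1 of both tissues 3 of 10 choroid plexus markers were lower in place of 0. Fewer libraries make an absence of overlap easier to reach, and the share of all genes called with these libraries left out is not given.

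With values as deposited, which moved the median gene from -0.04 to 0.18, 4 prolactin signalling genes were higher and 0 lower, and 2 coregulators were higher and 1 lower. The share of all genes called with values as deposited is not given. A filter at a mean of 5 FPKM, also added, left 2 pituitary genes, 1 prolactin signalling gene, 1 enzyme and 4 regional transcription factors higher, since fewer genes passed it. limma called 0 of the 4 members compared at a change of at least 1. Its p-values rest on the variation among libraries, with tissue and table confounded. By limma, Pgr had an adjusted p = 0.00171, and 1 member was under an unadjusted p of 0.05. Without a filter limma called 0 of 6, with an adjusted p = 0.000634 for Esr1 and 0.000368 for Esr2. Whether same-numbered libraries of the 2 tissues came from the same animals is unknown. Their deviations correlated at -0.08, -0.06, 0.08 and 0.14, within the -0.20 to 0.20 of the other pairs. Such low values cannot settle the pairing, as the spread between libraries may be technical. With the replicate block the members called stayed at 0, both by the sign of all 4 pairs and in limma. Without a filter the block took Cyp19a1 from an adjusted p = 0.082 to 0.0471 in limma, at 0.33. Unknown depth limits what can be said of values as low as those of Esr2.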

Other observations

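Markers of neighbouring regions were measured beside the set. Among 11 compared striatal, thalamic and septal markers there were 4 higher in hypothalamus, 2 lower and 5 not called. The dopamine receptor gene Drd2 averaged 6.40 ± 2.07 FPKM in hypothalamus against 0.951 ± 0.398 (SD, n = 4). Of 5 compared pituitary genes, 4 were higher in hypothalamus, with Cga at 188 ± 128 FPKM and Pou1f1, a pituitary transcription factor, at 19.2 ± 5.77. All 11 compared transcription factor genes of the ventromedial, arcuate and preoptic regions were higher in hypothalamus, with Fezf1 at 13.7 ± 4.14 FPKM and Nr2f2 at 37.2 ± 4.97. Of all genes compared, 13.3% were higher and 13.4% lower. These lists were chosen with earlier results of these data known.

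Some steroid and reproductive genes under the level filter did not overlap between the tissues either. Without a filter, 47.6% of 13495 genes did not overlap. Unknown depth limits what can be said of such low values. Hsd11b2, which inactivates glucocorticoid, averaged 0.732 ± 0.157 FPKM in hypothalamus against 0.0912 ± 0.0741 in hippocampus (SD, n = 4). Star, the cholesterol carrier of steroid-forming cells, was at 0.131 ± 0.0589 in hypothalamus and 0.454 ± 0.240 in hippocampus. Gnrhr, the receptor of the gonadotropin releasing hormone, was also lower in hypothalamus, at 0.0209 ± 0.00932 against 0.314 ± 0.144 FPKM, while Gnrh1 itself was higher there.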
